A study of Mus musculus with 6 samples.

Results

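Glycolysis and the pentose phosphate pathway were described through 33 genes chosen by name for their place in the pathway, from glucose transporters through the enzymes of both routes to lactate export and the kinases that hold back pyruvate oxidation. All 33 symbols were found in the deposited table, on 34 of its 15686 rows, since Aldoa is listed at a pair of loci. The table gives FPKM, which are reads scaled to transcript length and to library depth, in 6 libraries. Each member gene was covered by 30 to 15726 reads per library and the second Aldoa locus by 3 to 35, with reads recovered as described under the processing.

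Glycolysis splits glucose into pyruvate in the cytosol and yields ATP, and pyruvate is then reduced to lactate or oxidised in mitochondria. The pentose phosphate pathway branches off at glucose 6-phosphate. Its oxidative arm makes NADPH, and its non-oxidative arm exchanges sugars between ribose 5-phosphate and glycolysis. T cells that are activated and divide are known for high glucose uptake and lactate release, and neutrophils and macrophages also rely on both routes.

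The cells were CD4+ T cells taken from mouse spleen with an isolation kit after haematopoietic stem cell transplantation (HSCT), and ribosomal RNA was depleted before library construction. In the 3 libraries labelled allogeneic the donor is given as C57BL/6 and the host as Balb/c, and in the 3 labelled syngeneic both are given as Balb/c. Recipients of both groups are thus Balb/c by label, and no further treatment, time or age is given in the labels used here. Whether each library stands for its own mouse is not stated, so p-values measure the spread between libraries, which may be technical. Implied depth ran from 14.8 to 17.0 M reads per library.

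Genes that differ between these mouse strains went against the labels. Trbv26, a T cell receptor segment lost from T cells of Balb/c mice, had 0, 2 and 5 reads in the 3 libraries labelled allogeneic, where C57BL/6 is the named donor, against 340, 338 and 328 in those labelled syngeneic. Ighg2c, the antibody gene of the C57BL/6 allotype, was at 16.3 against 9605 FPKM, and H2-Ea-ps, not transcribed in C57BL/6 mice, at 133 against 21.1 FPKM. The sample titles carry the letter S on the libraries labelled allogeneic and A on those labelled syngeneic. Every direction below is therefore between libraries as labelled, allogeneic minus syngeneic, and it would turn if the labels were exchanged.

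The libraries also differed in the cells they held. All 8 T cell markers fell in the libraries labelled allogeneic (summed level 484 to 496 against 995 to 1057 FPKM), while all 5 granulocyte precursor markers (1317 to 1394 against 190 to 243 FPKM), all 9 macrophage markers (722 to 744 against 138 to 154 FPKM), all 11 red cell markers in the table (410 to 430 against 11.5 to 13.7 FPKM) and 5 of 6 neutrophil markers (2750 to 2879 against 1055 to 1228 FPKM) rose. All 10 proliferation genes rose too (715 to 747 against 378 to 398 FPKM). All 6 plasma cell markers fell (444 to 460 against 731 to 758 FPKM), as did both CD8 markers (1.37 to 1.57 against 13.9 to 15.6 FPKM) and both tested B cell markers (list sum 19.96 to 21.9 against 31.3 to 35.9 FPKM), and of 3 NK cell markers 1 rose and 2 fell (10.1 to 14.0 against 5.25 to 5.71 FPKM). Scaled to the CD3 chains, the T cell list had 3 markers higher and 3 lower, and the plasma cell list 1 and 4. The B cell and NK cell lists had 1 and 0 each, while the lists that had risen stayed higher. The 4 CD3 chain genes used for that scaling are among the 8 T cell markers, so the scaling itself holds part of this list near 0. Over all tested genes, 86.2% were called higher and 4.13% lower after it. No marker was at 0 in all libraries. In bulk libraries like these, fewer cells of a type and less RNA per cell cannot be told apart, and the part of these cell types in the results below was not tested.

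Most of the pathway was higher in the libraries labelled allogeneic. Of 33 tested rows, which are 32 genes and the second Aldoa locus, 23 rose, 4 fell and 6 did not pass the test (limma on log2(FPKM + 1), Benjamini-Hochberg adjusted p under 0.05). Over all 13235 tested genes, 67.4% were called, 40.7% higher and 26.6% lower. The median log2 difference was 0.32 for the members and 0.09 for all tested genes, and 25 of the 33 rows lay above the latter. The groups did not overlap for 28 of the 33, against 72.5% of all tested genes. Summed over the 33 genes, without the second Aldoa locus, the members came to 1747, 1759 and 1738 FPKM in the libraries labelled allogeneic. In those labelled syngeneic they came to 1311, 1323 and 1367 FPKM. As a share of all FPKM this was 0.527% to 0.535% against 0.348% to 0.369%. Aldoc, a minor aldolase, was below the level needed for testing at 0.846 ± 0.141 against 0.613 ± 0.0605 FPKM (SD, n = 3 each).

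**Figure D1:**
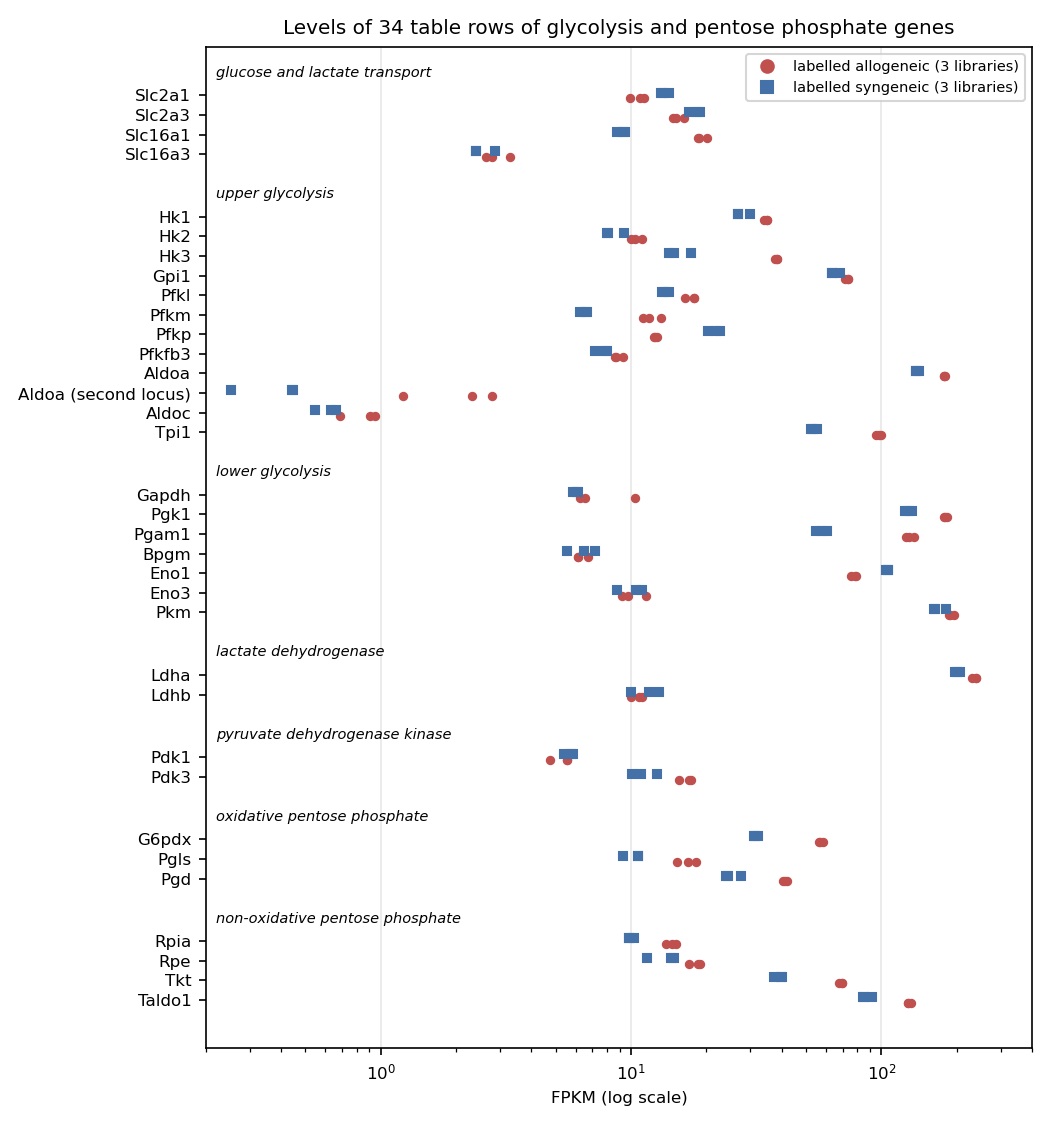
FPKM on a log axis for the 34 rows, by role, with 1 point per library (circles, 3 labelled allogeneic; squares, 3 labelled syngeneic). All 7 pentose phosphate genes have their circles to the right of their squares, while Pfkp and Eno1 have them to the left, and Gapdh lies far below its neighbours in the pathway at 5.85 to 10.4 FPKM.

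Scaling of the libraries matters for the size and, for members called lower, the sign of these differences. With upper quartiles set equal, 19 members rose and 4 fell, against 34.5% and 32.7% of all tested genes. With each library scaled to the geometric mean of its 4 CD3 chain genes, which stood at 31.6 to 32.9 against 65.3 to 70.5 FPKM, all 33 rose and 0 fell, against 86.2% and 4.13% of all tested genes. The median of all genes then became 1.02 and that of the members 1.36, and 24 of 33 lay above the median of all genes.

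**Figure D2:**
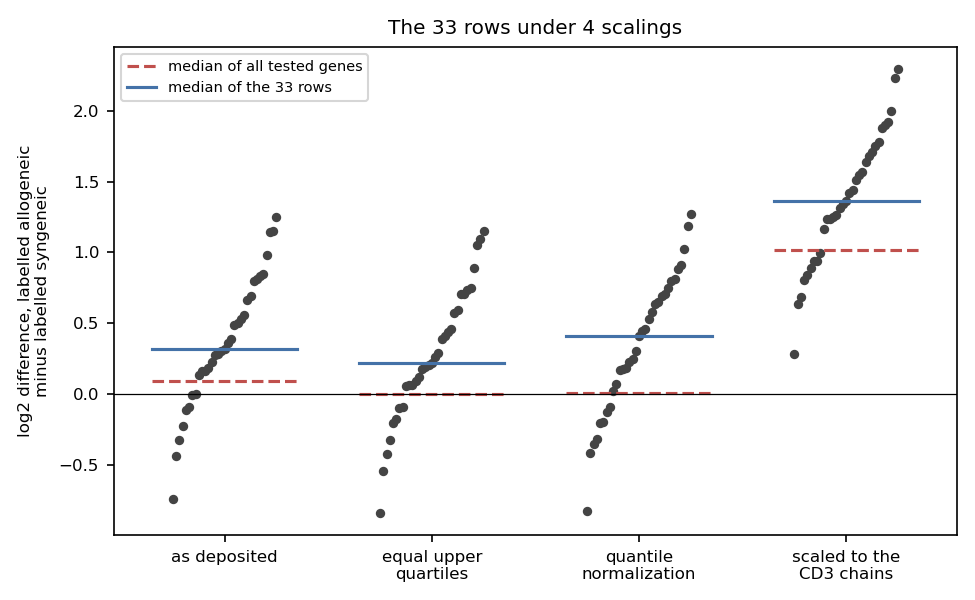
Log2 difference, libraries labelled allogeneic minus those labelled syngeneic, for the 33 tested rows (points, in order of size) under 4 scalings, with the median of the rows (solid line) and of all tested genes (dashed line). The members' median lies above that of all genes in each, at 0.32 against 0.09 as deposited and at 1.36 against 1.02 after scaling to the CD3 chains.

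The pentose phosphate pathway rose as a whole, with 7 of 7 genes higher and a median log2 difference of 0.67. Over all tested genes, 40.7% were higher and the median was 0.09. G6pdx, glucose 6-phosphate dehydrogenase, which commits glucose to the oxidative arm, was at 56.9, 58.2 and 56.1 FPKM in the libraries labelled allogeneic and at 31.1, 32.2 and 31.4 FPKM in those labelled syngeneic. Each library of the first group was thus well above each of the second, by 0.83 on the log2 scale (SE 0.0319, adjusted p = 2.04e-06). Pgd, the second NADPH-producing dehydrogenase, stood at 41.4, 40.5 and 42.1 against 24.3, 23.9 and 27.4 FPKM (0.69, adjusted p = 4.64e-05). Pgls, the lactonase between these enzymes, was at 18.2, 15.2 and 16.9 against 10.6, 10.7 and 9.28 FPKM (0.67, adjusted p = 0.000319). The groups did not overlap for any of the 3 oxidative genes, as held for 72.5% of all tested genes. G6pdx shares 418 exonic bases with Ikbkg on the opposite strand and Pgls 776 with Fam129c on the same strand, and reads there cannot be told apart, since the kit does not mark strand.

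The non-oxidative arm moved the same way. Tkt, transketolase, which passes carbon pairs between sugars, was at 69.5, 69.8 and 68.0 against 37.4, 39.6 and 40.0 FPKM, with no overlap (0.81, SE 0.0366, adjusted p = 3.76e-06). Taldo1, transaldolase, the most abundant pentose phosphate transcript per length, was at 128, 128 and 131 against 85.6, 84.4 and 91.7 FPKM (0.56, adjusted p = 2.80e-05). Rpia and Rpe, the isomerase and epimerase that interconvert pentose phosphates, differed by 0.50 (14.5 ± 0.671 against 9.97 ± 0.294 FPKM) and by 0.39 (18.1 ± 0.988 against 13.7 ± 1.82 FPKM). All 7 genes stayed higher under each of the 4 other scalings tried. Of all tested genes, 34.5% were called higher with equal upper quartiles and 86.2% after scaling to the CD3 chains. With quantile normalization 4673 of 13235 were, and with equal totals without immunoglobulin segments 4526.

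**Figure D3:**
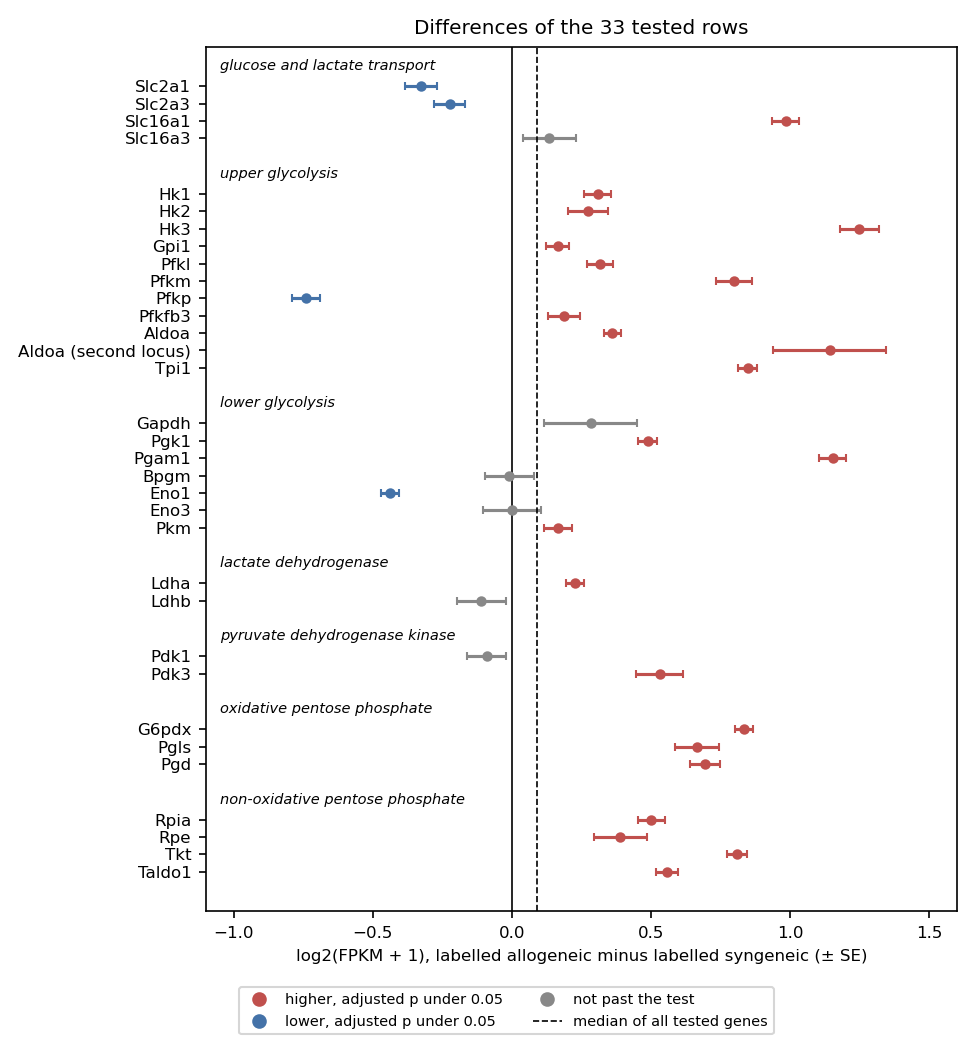
Log2 difference with its standard error for the 33 tested rows, by role, on the log2(FPKM + 1) scale, with the median of all tested genes (0.09) as a dashed line. The pentose phosphate rows all lie to the right, from Rpe at 0.39 to G6pdx at 0.83, and the rows called lower are Slc2a1, Slc2a3, Pfkp and Eno1.

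Transport split between entry and exit. Slc2a1, which encodes the glucose transporter GLUT1, was at 11.2, 10.9 and 9.86 FPKM in the libraries labelled allogeneic and 13.2, 14.1 and 13.5 FPKM in the others, lower by 0.33 on the log2 scale (adjusted p = 0.00212). Slc2a3, for GLUT3, the other main glucose carrier of lymphocytes, was at 15.1, 14.7 and 16.2 against 18.3, 17.1 and 18.9 FPKM, and fell by 0.22 (adjusted p = 0.00939). Both transporters were lower in every library of the first group, and both turned to higher after scaling to the CD3 chains, at 0.68 and 0.81, both below the median of 1.02 that all genes took there. Slc16a1, for the lactate carrier MCT1, went the other way, at 20.1, 18.8 and 18.5 against 9.47, 9.25 and 8.77 FPKM (0.98, SE 0.0493, adjusted p = 5.70e-06). Slc16a3, for MCT4, was at 2.91 ± 0.347 against 2.56 ± 0.267 FPKM and did not pass the test (adjusted p = 0.248).

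In upper glycolysis, which uses ATP to prime glucose and splits it into triose phosphates, 10 of 11 tested rows rose and 1 fell. Of all tested genes, 40.7% rose and 26.6% fell. The sparsely covered second Aldoa locus is among the rows that rose. Hk3, a hexokinase known from myeloid cells, had the largest difference of the 33 rows on the log2(FPKM + 1) scale as deposited. Pgam1 exceeded it under quantile normalization (1.27 against 1.19), as did the second Aldoa locus with voom (2.30 against 1.31) and Gapdh once its copies were added (1.55). Hk3 stood at 38.2, 38.2 and 37.7 FPKM in the libraries labelled allogeneic against 14.2, 14.9 and 17.3 FPKM (1.25, SE 0.0704, adjusted p = 9.57e-06). Granulocyte precursor, macrophage and red cell markers and proliferation genes were higher in the same libraries. The part of these cells in the Hk3 difference was not tested. Hk1 (0.31, 34.6 ± 0.450 against 27.8 ± 1.75 FPKM) and Hk2 (0.27, 10.5 ± 0.519 against 8.49 ± 0.783 FPKM), the housekeeping and the inducible hexokinase, rose less. The call of Hk2 was lost with equal upper quartiles (adjusted p = 0.0539).

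The phosphofructokinases, which catalyse the committed step of glycolysis, parted company. Pfkp, the platelet type, was at 12.7, 12.4 and 12.4 FPKM in the libraries labelled allogeneic and at 20.2, 21.8 and 22.7 FPKM in those labelled syngeneic. Each value of the first group lay under each of the second, a fall of 0.74 on the log2 scale (SE 0.0496, adjusted p = 2.05e-05) that turned to a rise of 0.29 after scaling to the CD3 chains. Pfkm, the muscle type, was at 13.1, 11.8 and 11.2 against 6.53, 6.69 and 6.23 FPKM (0.80, adjusted p = 4.98e-05), and Pfkl, the liver type, at 17.4 ± 0.783 against 13.7 ± 0.391 FPKM (0.32). Pfkfb3, which makes the activator of phosphofructokinase, rose by only 0.19 (8.88 ± 0.357 against 7.68 ± 0.433 FPKM), a call lost with equal upper quartiles (adjusted p = 0.173) and without either of 2 libraries, allogeneic replicate 3 (0.0757) or syngeneic replicate 1 (0.0581). Pfkp shares 748 exonic bases with Pitrm1 on the opposite strand, and Pfkm 341 with Gm26513 on the same strand.

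The remaining upper enzymes all rose. Tpi1, triose phosphate isomerase, was at 97.7, 99.3 and 95.6 against 52.3, 53.5 and 55.5 FPKM, with no overlap (0.85, SE 0.0349, adjusted p = 2.62e-06). Aldoa, the main aldolase, stood at 179 ± 1.30 against 139 ± 2.57 FPKM (0.36). Its second locus held only 16, 30 and 35 reads against 6, 6 and 3 (1.14, adjusted p = 0.00222). Gpi1, glucose phosphate isomerase, was at 73.0 ± 1.13 against 65.1 ± 2.91 FPKM, and its call (0.16, adjusted p = 0.00920) was lost with equal upper quartiles (adjusted p = 0.199).

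Isoenzyme make-up, a ratio within each library that does not depend on how libraries are scaled, differed most for the kinases. Pfkp made up 30.1%, 29.5% and 29.98% of phosphofructokinase FPKM in the libraries labelled allogeneic and 50.0%, 52.1% and 52.8% in those labelled syngeneic. Pfkm took 28.7% ± 2.06 against 15.5% ± 0.932, and Pfkl 41.4% ± 2.20 against 32.8% ± 0.963 (SD, n = 3 each). The leading phosphofructokinase per length was thus Pfkl in the first group and Pfkp in the second. Among hexokinases, Hk3 held 46.0%, 45.4% and 45.9% against 28.9%, 29.9% and 30.7%, and Hk1 41.6% ± 0.248 against 53.7% ± 0.940. Per length, the leading hexokinase was Hk3 in the first group and Hk1 in the second. By recovered reads, Hk1 led Hk3 in the libraries labelled allogeneic too (4825, 4818 and 4559 against 2285, 2275 and 2175). Pfkp likewise led Pfkl there (2767, 2685 and 2610 against 1784, 1922 and 1863). Which isoenzyme leads thus depends on the merged exon lengths, 8532 bases for Hk1, 3682 for Hk3, 13401 for Pfkp and 6675 for Pfkl.

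Smaller shifts were seen elsewhere. Pdk1 made up 24.1% ± 2.26 against 33.7% ± 2.28 of the Pdk1 and Pdk3 sum, Slc16a1 86.8% ± 0.837 against 78.2% ± 2.43 of the lactate carrier sum, and Ldha 95.7% ± 0.276 against 94.6% ± 0.546 of lactate dehydrogenase. Across 8 families a two-sided exact permutation test of the first member's share (Hk1, Pfkl, Eno1, Ldha, Slc16a1 and Pdk1) gave p = 0.1 for 6 of them, the smallest that 3 libraries against 3 allow, and 0.133 adjusted over the 8. The groups overlapped for Slc2a1 within the glucose transporters (41.0% ± 2.75 against 42.9% ± 2.07) and for Aldoa within the aldolases (99.5% ± 0.0814 against 99.6% ± 0.0505), both with p = 0.6 in the exact test.

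**Figure D4:**
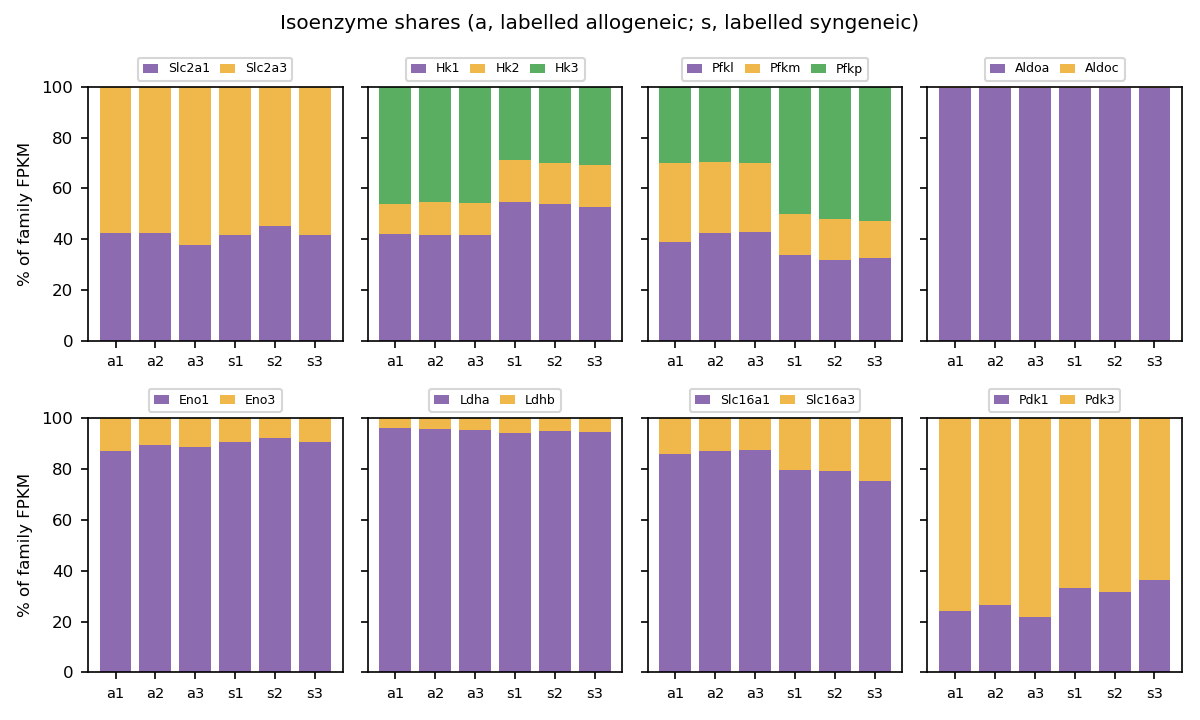
Share of each isoenzyme in the summed FPKM of its family, in percent, as stacked bars per library (a1 to a3 labelled allogeneic, s1 to s3 labelled syngeneic). The Pfkp share is near 30% in the a libraries and 50.0% to 52.8% in the s libraries, and the Hk3 share 45.4% to 46.0% against 28.9% to 30.7%.

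In lower glycolysis, which pays back ATP, 3 of 7 genes were higher, 1 lower and 3 not past the test. The share higher was near the 40.7% of all tested genes, of which 26.6% were lower. These counts are of the genes' own rows, and the calls of Gapdh and Eno1 changed once copies were added. Pgam1, phosphoglycerate mutase, was at 125, 136 and 129 FPKM in the libraries labelled allogeneic against 54.9, 60.9 and 57.9 FPKM, with no overlap (1.15, SE 0.0494, adjusted p = 3.03e-06). Pgk1, phosphoglycerate kinase, stood at 180 ± 1.94 against 128 ± 3.96 FPKM (0.49, adjusted p = 2.55e-05). Pkm, pyruvate kinase of most dividing cells and the second most abundant member per length, was at 190 ± 4.10 against 169 ± 10.3 FPKM. Its call (0.17, adjusted p = 0.0213) was lost with equal upper quartiles (0.282) and without any 1 of 4 libraries, with adjusted p of 0.0542 and 0.0725 without allogeneic replicates 1 and 2, and 0.0615 and 0.0621 without syngeneic replicates 1 and 2. Bpgm, whose product sets the oxygen affinity of red cells, was at 6.32 ± 0.330 against 6.39 ± 0.806 FPKM (adjusted p = 0.939), and Eno3, an enolase of muscle, at 10.1 ± 1.21 against 10.1 ± 1.16 FPKM (adjusted p = 0.997).

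Gapdh, the dehydrogenase that oxidises glyceraldehyde 3-phosphate, was listed at 6.52, 6.27 and 10.4 FPKM in the libraries labelled allogeneic and 6.06, 6.12 and 5.85 FPKM in those labelled syngeneic. Allogeneic replicate 3 stood above the other 5 libraries, and the difference did not pass the test (0.28, SE 0.167, adjusted p = 0.173). These levels ranked Gapdh only 29th of the 34 rows by mean FPKM, between neighbours in the pathway at 75.7 FPKM (Tpi1) and 154 FPKM (Pgk1). Gapdh is known for its many processed pseudogenes, which are spliced copies put back into the genome. By BLAST against the GENCODE M21 annotation (genome build GRCm38), 273 annotated loci matched Gapdh at 85% identity or more, 24 of them at 99% or more, and 13 had a row in the table.

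In the libraries labelled allogeneic, 1 copy held most of the reads of Gapdh and its copies. This was Gm13394, a processed pseudogene on chromosome 2 (28933610 to 28934609), with 6569, 6972 and 6609 of 8656, 9027 and 8899 reads, against 804, 805 and 685 of 3147, 3240 and 2686 in those labelled syngeneic, where Gm5559 held more (854, 986 and 767). Gm13394 was listed at 404, 431 and 422 FPKM against 47.4, 47.7 and 46.2 FPKM, a log2 difference of 3.13 (SE 0.0360, adjusted p = 3.87e-08). Other copies differed less or the other way. Gm5559 (chromosome 5) was at 65.7 ± 1.09 against 53.4 ± 4.32 FPKM and Gm7336 (chromosome 7) at 16.0 ± 0.497 against 31.9 ± 1.18 FPKM (−0.95, adjusted p = 3.55e-06). Gm9522 stood at 7.62 ± 1.17 against 10.4 ± 0.979 FPKM, lower by 0.41, and both turned after scaling to the CD3 chains, to 0.57 for Gm9522 and 0.09 for Gm7336. Gm12070 was at 4.23 ± 0.258 against 4.18 ± 0.419 FPKM and did not pass the test.

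Over the aligned bases, a single base separates each of Gm13394 and Gm5559, the copies with the highest levels, from Gapdh. The stretch around it is shown for both, because a read within the aligned bases must cover it to be told apart. The merged Gapdh exons span 4133 bases, and reads that reach beyond the aligned part need not cover it. Counted from 1 at the first base of the Gapdh coding sequence, Gm13394 differs by A346C and Gm5559 by T385A, each the only difference over 1000 and 1002 aligned bases. The base in capitals is the one that differs, and sequences are from GENCODE M21, build GRCm38, on the coding strand.
Gapdh at 346: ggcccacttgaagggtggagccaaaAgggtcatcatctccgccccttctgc
Gm13394: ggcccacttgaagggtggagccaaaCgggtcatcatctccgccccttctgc
Gapdh at 385: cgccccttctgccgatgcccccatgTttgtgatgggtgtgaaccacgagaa
Gm5559: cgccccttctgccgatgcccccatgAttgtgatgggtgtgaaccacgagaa
The Gapdh stretch at 346 was found letter for letter in 48 other annotated genes and that at 385 in 39, while the Gm13394 and Gm5559 stretches were found in 0 others. How reads that match several loci were assigned is not given in the sources used here. Whether Balb/c mice carry the same bases at Gapdh and these copies was not checked.

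Gapdh was next read together with its copies. The Gapdh row itself held 5.06%, 4.64% and 7.55% of the reads of Gapdh and its 13 listed copies in the libraries labelled allogeneic and 13.5%, 13.2% and 13.4% in those labelled syngeneic. With the copies' reads added and divided by the Gapdh exon length, the family stood at 129, 135 and 137 FPKM against 44.9, 46.5 and 43.8 FPKM. The groups did not overlap and the log2 difference was 1.55 (SE 0.0387, adjusted p = 4.46e-07). The sum was thus called higher, where the Gapdh row alone had not passed the test. Most reads of the sum in the libraries labelled allogeneic were those of Gm13394 (419 ± 13.6 against 47.1 ± 0.819 FPKM). Only 13 of 273 annotated copies enter the sum, and whether Gapdh itself differed was not tested.

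Eno1, the main enolase, had the same difficulty with the opposite outcome. Its own row was at 78.2, 79.2 and 75.7 FPKM in the libraries labelled allogeneic against 104, 106 and 106 FPKM, lower by 0.44 (SE 0.0312, adjusted p = 2.71e-05), and at 0.64 after scaling to the CD3 chains. Gm4735, a processed pseudogene on chromosome 2 (80837141 to 80838442), was at 95.5, 100.4 and 103 against 34.7, 29.1 and 33.8 FPKM (1.59), and the retrogene Eno1b at 70.1 ± 2.66 against 23.8 ± 2.42 FPKM (1.52). Both copies thus rose where the parent row fell. Eno1 held 60.2% to 62.3% of the reads of itself and 4 copies in the first group and 85.3% to 87.2% in the second. With copies added the enolase total was 127 ± 2.30 against 122 ± 0.225 FPKM, which ended the call and turned its direction (0.06, adjusted p = 0.136).

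Gm4735 differs from the Eno1 coding sequence at 5 bases over 1302, written as T726C, T816G, A1056G, T1224C and C1233T with positions from 1 at the first coding base. The stretches around 2 of them are shown, since each of these was found in 0 other annotated genes, parent and copy alike. Within this annotation they tell both loci apart, and whether Balb/c mice carry the same bases was not checked.
Eno1 at 726: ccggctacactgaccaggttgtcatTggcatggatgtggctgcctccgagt
Gm4735: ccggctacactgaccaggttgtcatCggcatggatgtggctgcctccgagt
Eno1 at 1056: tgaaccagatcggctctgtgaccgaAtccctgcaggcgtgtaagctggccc
Gm4735: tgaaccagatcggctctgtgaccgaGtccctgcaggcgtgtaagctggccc
The Eno1 share of enolase FPKM was 88.5% ± 1.22 against 91.3% ± 0.939 from its own row and 92.6% ± 0.905 against 92.3% ± 0.799 with copies added, where the groups overlapped.

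For the other 7 members with copies in the table (Tpi1, Pgam1, Aldoa, Pgk1, Taldo1, Ldha and Pkm) the row itself held at least 98.4% of the reads in each library, and adding the copies left each call as it was. Among these copies at or above 1 FPKM, Tpi-rs11 rose from 2.42 to 8.78 FPKM (1.55, adjusted p = 0.000639). Pgam1-ps2 (3.11 against 2.03 FPKM), Pgk1-rs7 (2.32 against 1.82 FPKM) and Gm6560, a copy of Pkm (6.94 against 5.79 FPKM), did not pass the test. Of the minor enolase copies, Gm5855 was at 1.63 against 0.970 FPKM (0.42, adjusted p = 0.0105).

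**Figure D5:**
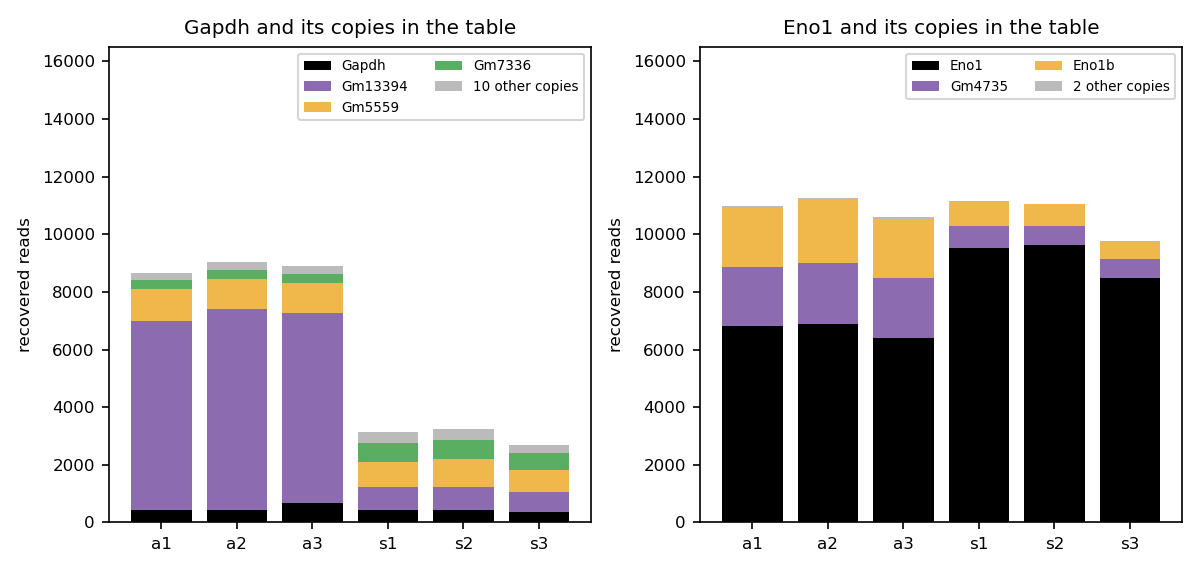
Recovered reads per library (a1 to a3 labelled allogeneic, s1 to s3 labelled syngeneic) for Gapdh and for Eno1, stacked with their copies in the table. The Gapdh stack reaches 8656 to 9027 reads in the a libraries, of which Gm13394 has 6569 to 6972, and 2686 to 3240 reads in the s libraries, of which it has 685 to 805, while the Eno1 stacks are of like height with a smaller Eno1 part in the a libraries.

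At the branch after pyruvate, Ldha, the lactate dehydrogenase subunit of glycolytic tissues and the most abundant member per length, was at 238, 238 and 231 FPKM against 205, 197 and 201 FPKM. The groups did not overlap and the rise was small (0.23, SE 0.0329, adjusted p = 0.000839). Ldhb, the heart type, was at 10.6 ± 0.567 against 11.6 ± 1.45 FPKM and did not pass the test (adjusted p = 0.315), although it did, as lower, without syngeneic replicate 2 (adjusted p = 0.0405). Pdk3, one of the kinases that inactivate pyruvate dehydrogenase, was at 17.4, 15.5 and 17.0 against 10.9, 12.7 and 10.1 FPKM (0.53, adjusted p = 0.00126). Pdk1, a relative of Pdk3 and a known target of HIF1, was at 5.29 ± 0.461 against 5.69 ± 0.242 FPKM (adjusted p = 0.292).

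Promoter sequence was read for the 32 members matched in RefSeq (build GRCm38.p6, 300 bases around each start). The transcription factors HIF1 and MYC are known to act on glycolytic genes. ACGTG, the core of the hypoxia response element, occurred on either strand in 14 of 32 member promoters (43.8%) and in 19.7% of 27025 promoters. CACGTG, the E-box bound by MYC and its partners, occurred in 3 of 32 (9.38%) against 7.24%, and each such match holds ACGTG on both strands. Ldha and Slc16a1 are shown as 2 of the 3 with both motifs, both called higher, in capitals where ACGTG is found on either strand.
Ldha, chr7:46845554-46845853, plus strand: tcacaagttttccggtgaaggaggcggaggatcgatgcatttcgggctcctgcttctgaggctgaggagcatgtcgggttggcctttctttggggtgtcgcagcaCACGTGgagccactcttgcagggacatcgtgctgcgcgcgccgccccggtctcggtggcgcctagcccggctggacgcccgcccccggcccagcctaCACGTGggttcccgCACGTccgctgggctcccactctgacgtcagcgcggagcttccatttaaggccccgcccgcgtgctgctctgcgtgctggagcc
Slc16a1, chr3:104638414-104638713, plus strand: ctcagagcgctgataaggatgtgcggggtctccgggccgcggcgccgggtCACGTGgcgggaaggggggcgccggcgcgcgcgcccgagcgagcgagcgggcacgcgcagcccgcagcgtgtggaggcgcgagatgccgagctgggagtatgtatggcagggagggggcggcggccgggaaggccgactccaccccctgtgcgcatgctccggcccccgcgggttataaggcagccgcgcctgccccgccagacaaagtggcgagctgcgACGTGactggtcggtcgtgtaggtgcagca
Of the pentose phosphate genes, G6pdx held ACGTG, while Tkt, Taldo1, Pgd, Pgls, Rpia and Rpe did not. Of the genes called lower, Slc2a1 held it, Eno1 and Pfkp did not, and Slc2a3 had no promoter entry. These are matches of letters, and binding was not measured. Whether the motifs go with the differences between the libraries was not tested.

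Beyond the 33 members, 22 other genes of both routes were tested, of which 9 rose and 4 fell, with a median log2 difference of 0.11, against 40.7% and 26.6% of all tested genes. After scaling to the CD3 chains 19 rose and 1 fell, against 86.2% and 4.13%, so these shares lay near those of all genes. The largest rises were Pklr, the pyruvate kinase of liver and red cells (5.72 ± 0.802 against 0.748 ± 0.146 FPKM, 1.94), and Fbp1, the gluconeogenic fructose bisphosphatase (6.07 ± 0.320 against 1.00 ± 0.233 FPKM, 1.83). The largest falls were Slc2a8, for the transporter GLUT8 (1.89 ± 0.294 against 7.48 ± 0.196 FPKM, −1.56), and Gapdhs, the sperm form of Gapdh (0.915 ± 0.2003 against 1.64 ± 0.211 FPKM, −0.47, and 0.13 after scaling to the CD3 chains). For pyruvate dehydrogenase and pyruvate entry, 6 of 11 rose and 0 fell, with a median of 0.32, against 40.7% and 26.6% of all tested genes. With equal upper quartiles 6 rose and 1 fell (34.5% and 32.7% of all tested genes). After scaling to the CD3 chains all 11 rose, as did 86.2% of all tested genes. Pdhx (0.68) and Dld (0.60) rose most as deposited, and encode lipoamide dehydrogenase's anchoring protein and lipoamide dehydrogenase itself.

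Among regulators of glycolysis 10 of 27 were higher and 7 lower, with a median of 0.06, a share near the 40.7% and 26.6% of all tested genes. The split was 8 higher and 12 lower with equal upper quartiles (34.5% and 32.7% of all tested genes), and 24 and 3 after scaling to the CD3 chains. Txnip, which restrains glucose uptake, fell from 457 ± 27.1 to 108 ± 3.08 FPKM (−2.07). Mlxip, the glucose-sensing factor that drives Txnip, fell from 54.2 ± 2.33 to 19.2 ± 0.952 FPKM (−1.45). Both stayed lower after scaling to the CD3 chains, at −0.98 and −0.39. Nfe2l2, for NRF2, an activator of pentose phosphate genes, was at 21.5 ± 0.347 against 14.1 ± 0.405 FPKM (0.57), and Trp53, for p53, at 48.7 ± 2.41 against 32.5 ± 0.256 FPKM (0.57). Hif1a and Myc, chosen after their values were seen, stood at 22.7 ± 0.0764 against 44.4 ± 1.89 FPKM (−0.94, and 0.11 after scaling to the CD3 chains) and at 45.9 ± 1.26 against 31.7 ± 1.66 FPKM (0.52).

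Of 15 tested HIF1 targets outside glycolysis 6 were higher and 5 lower, with a median of 0.10, against 40.7% and 26.6% of all tested genes. After scaling to the CD3 chains 12 were higher and 2 lower, against 86.2% and 4.13%. Egln3, a prolyl hydroxylase that marks HIF for decay (8.28 ± 0.705 against 1.95 ± 0.316 FPKM, 1.66), and Car9, a carbonic anhydrase (2.44 ± 0.403 against 0.620 ± 0.111 FPKM, 1.08), rose most. Ddit4, an inhibitor of mTORC1, fell from 191 ± 4.803 to 32.7 ± 2.61 FPKM (−2.51), and Bhlhe40, a transcriptional repressor, from 75.8 ± 2.64 to 30.3 ± 1.12 FPKM (−1.29). Both stayed lower after scaling to the CD3 chains, at −1.44 and −0.23. Other members share over 100 exonic bases with a neighbouring gene (Pkm with Gm49759, Gpi1 with Gm26762, Rpe with Kansl1l, Hk1 with Hk1os and Slc2a1 with Gm12868), so that their reads may include some of that gene.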

How the data were processed

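RNA was measured in 6 spleen CD4+ T cell libraries, grouped by the donor and host named in their characteristics labels. The deposited table holds FPKM (or RPKM, as nothing states whether reads or fragments were counted), a unit read from the values: times merged exon length in GENCODE M21 (GRCm38) they gave whole reads, within 0.05, in all 6 libraries for 14580 of 15686 rows (92.9%). The lowest row maximum was 0.517 FPKM. The authors' aligner, counter and build remain not given in the sources used here. Limma is named in the submitters' processing notes.

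The 13235 rows that reached 1 FPKM in 3 or more libraries entered limma 3.58.1 (R 4.3.3) as log2(FPKM + 1), with moderated variances that follow a trend over mean level, adjusted by Benjamini-Hochberg at 0.05. Fold changes on this scale understate those of low genes. The limma step was tested on simulated data. Copies were annotated loci aligned with BLAST+ 2.17.0 at 85% identity over 80% of their length and at least 200 bases, leaving out the member's own locus. Isoenzyme shares were compared by exact permutation over 20 arrangements. Python 3.11.15 and pandas 2.3.3 made the tables.

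Alternatives were 4 scalings (equal upper quartiles, quantile normalization, CD3 chains, totals without immunoglobulin segments), no filter or a mean of at least 5 FPKM, pseudocounts of 0.1 and 5, no trend, leaving out each library, a block for the replicate number, adding copies and, added after seeing the data, voom on the recovered reads. The members and lists were chosen with earlier results of these data known. All members are named, with up to 4 called genes per companion list (the 2 largest rises and 2 largest falls) and copies averaging at least 1 FPKM. Amplification copies were not marked, so recovered reads are not independent molecules.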

Additional observations from a re-analysis of the deposited data

How the results depend on the processing

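The count of called genes (8914) lay between 8259 and 8506 with each library left out in turn, and the members' counts between 21 and 23 higher and 4 and 5 lower. Scaling to the CD3 chains left 0 members lower and turned the sign of Eno1 (0.64), Pfkp (0.29), Slc2a1 (0.68), Slc2a3 (0.81), Pdk1 (0.84), Ldhb (0.89) and Bpgm (0.94). It also raised the called genes to 20 of the other glycolysis list, 11 of the pyruvate list and 27 of the regulators, and left 1 B cell and 1 NK cell marker called. The construction of that scaling moves nearly all genes up. Adding copies turned Eno1 to 0.0551. Bpgm and Eno3, both near 0, changed sign with single libraries left out (−0.0930 to 0.0652 for Bpgm and −0.0865 to 0.0603 for Eno3), and Eno3 stood at −0.0926 with equal upper quartiles, −0.0925 with quantile normalization and −0.0947 with totals set equal without immunoglobulin segments, which took 9.03% to 9.28% against 24.8% to 26.1% of FPKM. Equal upper quartiles and totals without immunoglobulin segments each ended 4 members' calls (Gpi1, Pkm, Hk2 and Pfkfb3), and quantile normalization ended those of Hk2 and Pfkfb3 and made Pdk1 lower (adjusted p = 0.0381). A mean of at least 5 FPKM tested fewer genes, so 7 of the other glycolysis list, 1 CD8, 6 red cell and 0 NK cell markers were called, and with no filter 4 B cell markers were. Pseudocounts of 0.1 and 5, no trend and voom (9213 genes called) left each tested member's call as it was. The replicate block also changed no member's call (8673 genes called). Deviations of same-numbered libraries correlated at −0.03, 0.02 and −0.05, and 0 of 3 correlated best with its own number. With 3 libraries per group this check cannot exclude a shared batch or preparation. The labels used here give no link between same-numbered libraries beyond the number. For shares, leaving out members under 1 FPKM gave no value, since it leaves the aldolases with 1 member. Depth limits the second Aldoa locus, at 3 to 35 reads per library.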
